A study of Rattus norvegicus with 36 samples.

Results

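The cells compared here were those washed out of the airspaces by bronchoalveolar lavage, taken from rats that had inhaled silica and from rats that had breathed air. They make up 12 of the 36 arrays of a study that also profiled lung tissue and blood. The members were chosen by their label as cells of bronchoalveolar lavage fluid (BALF), 6 from silica rats and 6 from air rats. All were male rats of the strain labelled Fisher (CDF) 344, with a label age of approximately 3 months. For 5 days, 6 h on each, the silica rats had breathed crystalline silica at 15 mg/m3 and the air rats 0 mg/m3, and both were killed 44 weeks after exposure ended. The label age therefore cannot be the age at which the cells were taken. By the labels, each BALF sample and a lung sample came from the same rat. A BALF sample is a mixture of whatever cells the lavage recovered, so that fewer cells of a type and less RNA per cell cannot be told apart.

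Alveolar macrophages are the main cells of a healthy lavage. They live in the airspaces, clear surfactant lipid and engulf inhaled particles. Silica crystals are not degraded. They damage the lysosomes of the macrophages that take them up, and silica lungs are known for continuing release of cytokines and chemokines and for recruitment of monocytes, neutrophils and lymphocytes.

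Of 21792 probes on the rat BeadChip, an array of beads that each carry a probe, 9564 (43.9%) were detected on at least 6 of the 12 arrays and were tested. Values are log2 normalized intensities. On this scale the 10478 probes detected on no array had a median of 7.35 and the brightest probe reached 15.1, so that a change from or to a level near 7.4 understates the change in RNA. Near the top of the scale a rise may register only in part. Between 9229 and 9773 probes were detected per array, and with 6 rats in a group the precision is limited by their number. Arrays of the same group correlated at 0.994 to 0.998 and arrays of different groups at 0.982 to 0.991. The macrophage character of the cells was looked at in bright markers only. Of the resident alveolar macrophage markers described below, 2 of 20 tested members rose and 7 fell. Cd68, the macrophage lysosomal glycoprotein, had 14.14 ± 0.06 in silica cells and 14.04 ± 0.07 in air cells (SD, 6 rats per group), and lipoprotein lipase, Lpl, which resident alveolar macrophages express, had 15.12 ± 0.03 in silica cells and 15.03 ± 0.10 in air cells. A single silica array, replicate 6, lay apart in the genes of antigen presentation and of lymphocytes, and air replicate 4 in several neutrophil and interferon genes. Values without them are given beside many of the results they touch. Nothing in the labels says whether the rats were handled or hybridised together, so that p-values measure the spread between these samples.

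In silica cells 1458 probes (15.2%) were higher and 1729 (18.1%) lower at an adjusted p under 0.05 (limma with Benjamini-Hochberg adjustment over all 9564 probes), 33.3% in either direction. The changes that were at least 1.5-fold were fewer, 147 higher (1.54%) and 125 lower (1.31%). Without background correction 260 were higher by that much, after the median shift described next 97 were higher, and with the authors' processed values 78 were lower. Those past 2-fold numbered 63 higher and 26 lower. All 6 silica arrays lay above all 6 air arrays for 865 probes (9.04%) and below them for 925 (9.67%). The median change over all tested probes was -0.01. Of the tested probes, 80 were detected on no air array and 1 on no silica array, so that they passed the filter only through the group in which they are higher. The counts rested on quantile normalization: when each array was only shifted to a common median, 275 probes were higher and 207 lower, and 57.1% of the called probes were higher, against 45.7% in the main analysis. The 40 leading genes, the 20 largest rises and the 20 largest falls, passed the test under each scaling that was tried. Over 58 lists of genes by role, 1087 members were tested, of which 345 (31.7%) rose and 205 (18.9%) fell, beside 15.2% and 18.1% of all tested probes. The lists were chosen with earlier results of these data known, so that these shares are no test of the lists. List counts follow by role, with the counts after the median shift where they differ by over 1.5 times. Those after the shift are to be read beside 275 higher and 207 lower of all 9564 probes. Members detected on no air array are counted too, and their rise is no result about a list. Of the 216 genes named by rule, 103 were no longer called after that shift.

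Apoe, an apolipoprotein through which macrophages export cholesterol, had the largest change. Its levels were 12.23, 12.56, 13.11, 11.87, 13.24 and 11.43 in the silica arrays, against 7.53, 7.43, 7.56, 7.53, 7.55 and 8.20 in the air arrays. The lowest silica array lay above the highest air array, air replicate 6, and the rise was 27.3-fold (log2 change 4.77 ± 0.29, SE, adjusted p 1.25e-06, limma). Spp1 encodes osteopontin, a secreted phosphoprotein made by activated macrophages. It read 13.50, 14.03, 14.39, 13.19, 14.51 and 11.66 in the silica arrays, against 9.54, 10.06, 9.72, 10.09, 9.64 and 10.87 in the air arrays. Here the groups came close, since silica replicate 6 at 11.66 was only just above air replicate 6 at 10.87, and the mean rise was 11.8-fold (3.56 ± 0.45, adjusted p 0.000128). Without silica replicate 6 it was 3.94 on the log2 scale.

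Hopx, a homeodomain protein that does not bind DNA, was among the most uniform rises. Its levels were 11.23, 11.45, 11.41, 10.91, 11.39 and 10.89 in the silica arrays, against 7.85, 7.76, 7.99, 8.08, 7.83 and 7.91 in the air arrays, a 9.92-fold change (3.31 ± 0.11, adjusted p 1.94e-08). Both groups were tight, with SDs of 0.26 in silica cells and 0.12 in air cells. Hopx also marks alveolar type 1 epithelial cells. Within the list of alveolar epithelial markers, which holds it, 4 of 9 tested members rose and 1 fell (4 and 0 after the median shift); those that rose besides Hopx were Lpcat1, a lysophospholipid acyltransferase (1.02 ± 0.13), the aspartic protease Napsa (0.54 ± 0.11) and podoplanin, Pdpn, which was not well above background on any air array and was at least 1.07-fold higher. The type 1 cell water channel Aqp5 stood at 7.43 in silica cells and 7.48 in air cells, near the floor, and the type 2 cell genes Sftpc, Sftpb and Sftpd were too dim to be tested.

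Il1r2 encodes the decoy receptor that binds interleukin-1 without signalling. It read 10.23, 10.20, 10.66, 10.54, 10.10 and 9.9979 in the silica arrays, against 7.47, 7.47, 7.44, 7.76, 7.45 and 7.47 in the air arrays (2.78 ± 0.11, adjusted p 5.62e-08). Slfn3, a Schlafen family gene, read 10.81, 10.42, 10.81, 10.52, 10.42 and 10.77 in the silica arrays, against 7.74, 7.82, 7.68, 8.42, 7.77 and 7.71 in the air arrays (2.77 ± 0.13, adjusted p 1.83e-07). Slpi, the secretory leukocyte protease inhibitor, read 9.58, 9.96, 9.66, 9.64, 9.94 and 10.11 in the silica arrays, against 7.56, 7.53, 7.53, 7.93, 7.53 and 7.56 in the air arrays (2.21 ± 0.10, adjusted p 1.79e-07). In all of these air replicate 4 stood highest among the air arrays, yet no silica and air arrays overlapped. Without it the changes were 2.83 for Il1r2, 2.88 for Slfn3 and 2.27 for Slpi.

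The other rises among the 20 largest included cell surface and metabolic genes. They were Ceacam4 (2.17 ± 0.12), an adhesion molecule named Ceacam10 in the files, the GPI-anchored protein gene Ly6e (2.06 ± 0.14), the matrix glycoprotein fibronectin, Fn1 (1.93 ± 0.18), the glutamate and aspartate transporter Slc1a3 (1.82 ± 0.13), the tetraspanin Cd81 (1.81 ± 0.17), the stearoyl-CoA desaturase Scd (1.81 ± 0.16) and the membrane protein Plxdc2 (1.78 ± 0.09). Fn1 spread little in silica cells, 12.66 to 13.03, and more in air cells, 10.34 to 11.53. A second tested probe of Scd, near the floor, rose by 0.33.

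**Figure D1:**
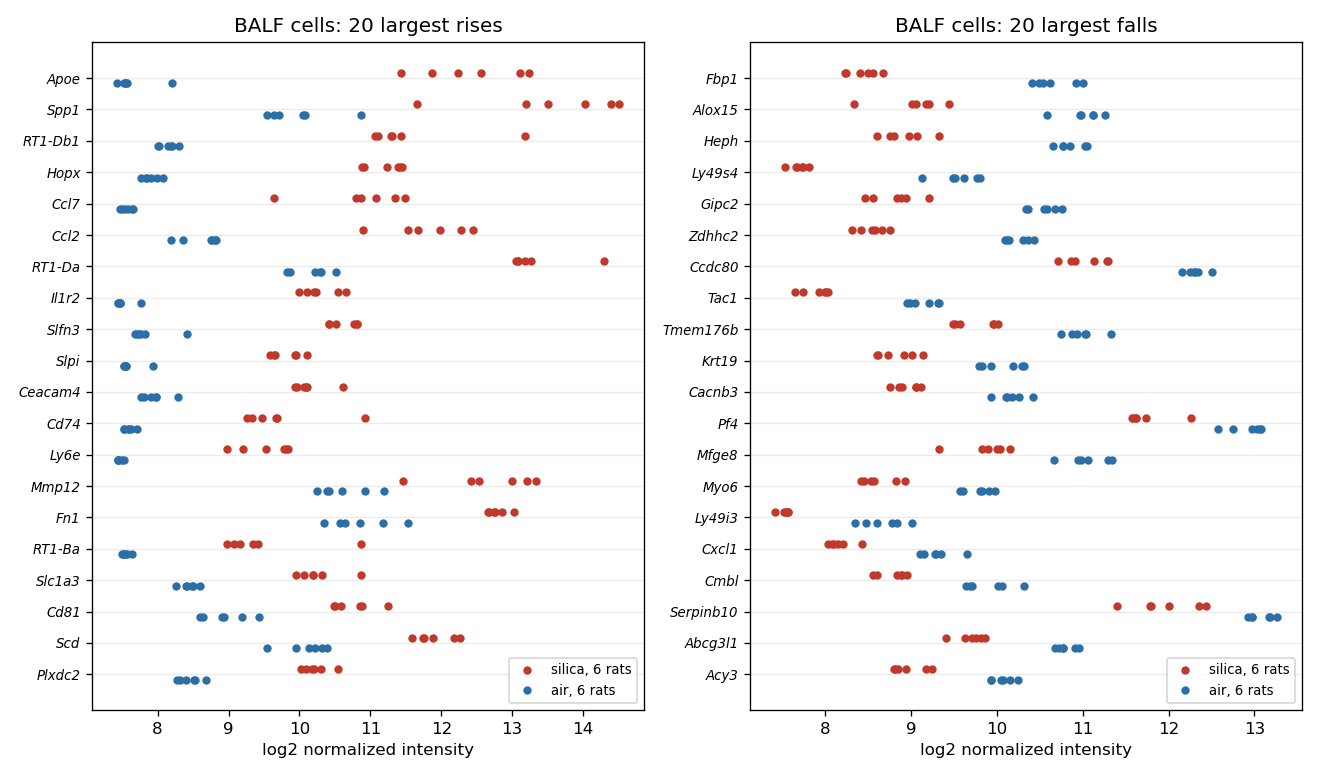
Levels of the 20 genes with the largest rises (left) and the 20 with the largest falls (right) in BALF cells, each point 1 rat, silica in red above air in blue, on a log2 scale of normalized intensity. The 2 groups do not overlap for any of these genes, as the rule that chose them required. Silica replicate 6 is the lone high point of RT1-Db1 and RT1-Da and the lone low point of Ccl7.

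Genes of antigen presentation to CD4+ T cells had the highest median change of the 58 lists. MHC class II molecules pair an alpha with a beta chain, and the invariant chain Cd74 escorts them to the compartment where they take up peptide. In rats the RT1-D and RT1-B loci correspond to HLA-DR and HLA-DQ. Of this list 5 of 8 tested members rose and 0 fell, and that median was 1.09. For RT1-Db1, a DR beta chain, the levels were 11.29, 11.31, 11.06, 11.10, 11.43 and 13.18 in the silica arrays, against 8.14, 8.01, 8.30, 8.19, 8.01 and 8.20 in the air arrays, a 10.7-fold rise (3.42 ± 0.31, adjusted p 1.39e-05). For RT1-Da, the DR alpha chain, which the files name H2-Ea, they were 13.09, 13.18, 13.08, 13.05, 13.27 and 14.30 in the silica arrays, against 10.21, 9.82, 10.31, 10.51, 9.87 and 10.29 in the air arrays, an 8.94-fold rise (3.16 ± 0.21, adjusted p 2.26e-06). Cd74 (2.13 ± 0.24) and the DQ alpha chain RT1-Ba (1.92 ± 0.27) rose from levels near the floor. The lysosomal thiol reductase Ifi30 rose less (0.26 ± 0.04), and Lgmn, Cd83 and RT1-DOa changed by 0.08, 0.03 and 0.0025 without a call. The class II transactivator Ciita and the costimulatory genes Cd40, Cd80 and Cd86 were too dim to be tested. Silica replicate 6 was the highest array for RT1-Db1, RT1-Da, RT1-Ba and Cd74. Without it their changes were 3.09, 2.97, 1.65 and 1.89, and the same number of list members, 5, rose.

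Class II genes share promoter boxes, the X box and the Y box, that bind RFX and NF-Y and on which the transactivator assembles. The 150 bases before the start of the 3 class II genes that rose are shown because they moved together, as RefSeq annotates them on rat build GRCr8, each on the gene's own strand. Capitals mark the Y box letters CTGATTGG and the X box core letters GCAACNG.
RT1-Da: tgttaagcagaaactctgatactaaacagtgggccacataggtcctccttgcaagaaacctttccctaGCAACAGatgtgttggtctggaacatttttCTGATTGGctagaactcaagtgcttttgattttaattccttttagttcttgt
RT1-Db1: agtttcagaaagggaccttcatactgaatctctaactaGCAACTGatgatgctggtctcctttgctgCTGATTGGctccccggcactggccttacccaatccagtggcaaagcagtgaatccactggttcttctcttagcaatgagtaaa
RT1-Ba: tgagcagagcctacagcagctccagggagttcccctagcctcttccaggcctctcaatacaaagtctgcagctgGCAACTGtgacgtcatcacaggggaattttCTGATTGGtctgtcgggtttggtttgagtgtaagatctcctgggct
They lie at chr20:4515265-4515414 on the plus strand, chr20:4560163-4560312 on the minus strand and chr20:4576907-4577056 on the plus strand. The Y box letters began at -52 in RT1-Da, -83 in RT1-Db1 and -46 in RT1-Ba, counted from the annotated start, and the X box core letters at -82, -112 and -76, upstream of them in each. On either strand, CTGATTGG was found in 3.5% and GCAACNG in 12.2% of 33469 promoter windows of 300 bases, and both in 0.394%. In the Cd74 window neither run of letters was found. A match of letters is a description of the sequence.

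MHC class I genes were mostly not called. Within the list of class I, peptide loading and immunoproteasome genes 3 of 20 tested members rose and 0 fell (0 and 0 after the median shift). Those that rose were the ubiquitin-like Ubd (0.99 ± 0.27, detected on 4 of 6 air arrays) and the chaperones Canx (0.41 ± 0.09) and Calr (0.33 ± 0.04). Silica replicate 6 was the highest array for Ubd, and without it the change was 0.72. B2m, the class I light chain, stood at 14.93 ± 0.06 in silica cells and 14.85 ± 0.08 in air cells and did not pass (adjusted p 0.135, limma). Both levels were near the top of the scale.

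**Figure D2:**
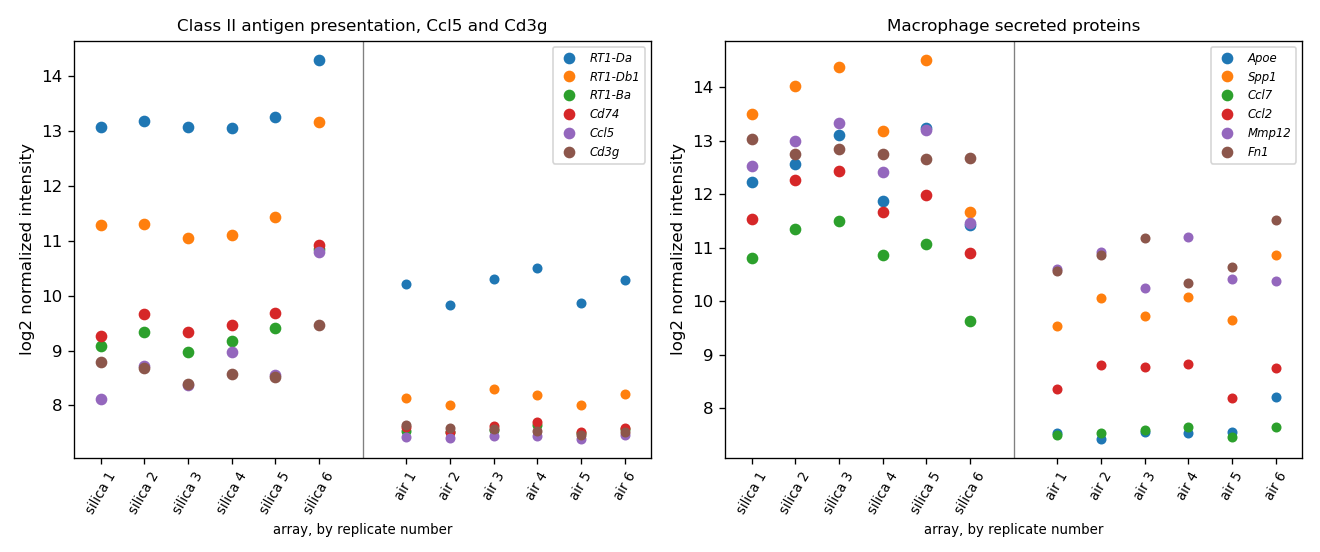
Levels of 12 genes on each BALF array, silica replicates 1 to 6 left of air replicates 1 to 6, on a log2 scale of normalized intensity. Left, class II genes with Ccl5 and Cd3g, in which silica replicate 6 is the highest array. Right, secreted proteins of macrophages, in which the same array is the lowest of the silica group for Apoe, Spp1, Ccl7, Ccl2 and Mmp12 but not for Fn1.

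The monocyte chemoattractants rose most among the chemokines. Ccl2 and Ccl7 encode neighbouring CC chemokines that draw monocytes through the receptor CCR2. For Ccl7 the levels were 10.80, 11.35, 11.49, 10.86, 11.07 and 9.64 in the silica arrays, against 7.50, 7.54, 7.59, 7.64, 7.47 and 7.65 in the air arrays (9.88-fold, 3.30 ± 0.26, adjusted p 5.22e-06). For Ccl2 they were 11.53, 12.27, 12.44, 11.68, 11.99 and 10.90 in the silica arrays, against 8.36, 8.81, 8.76, 8.82, 8.19 and 8.75 in the air arrays (9.1-fold, 3.19 ± 0.24, adjusted p 4.04e-06). Every silica array was above every air array for both, and silica replicate 6 was the lowest of its group. Without it the changes were 3.55 for Ccl7 and 3.37 for Ccl2. Of the CC chemokines 7 of 11 tested members rose and 1 fell (5 and 0 after the median shift). Ccl5, a chemoattractant of T cells and monocytes, ranged from 8.11 to 10.80 in silica cells and 7.40 to 7.47 in air cells (1.49 ± 0.37). Its highest value was again that of silica replicate 6, without which the change was 1.12. The CCR4 ligands Ccl17 (0.56 ± 0.06) and Ccl22 (at least 1.2-fold higher, not well above background on any air array) and Ccl3 (0.36 ± 0.12) rose, and Ccl6 fell (-0.20 ± 0.04).

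Among the CXC chemokines more fell than rose. In this list 1 of 9 tested members rose and 3 fell (0 and 2 after the median shift). The 1 that rose, Cxcl10, was tested only through its detection in silica cells. Pf4, platelet factor 4, which macrophages also make, read 11.74, 11.62, 12.26, 11.59, 11.57 and 11.62 in the silica arrays, against 13.03, 13.07, 13.08, 12.97, 12.57 and 12.75 in the air arrays (-1.18 ± 0.13, adjusted p 5.03e-05). Cxcl1, a neutrophil chemoattractant, fell 2.2-fold (-1.14 ± 0.09). Its levels were 8.03 to 8.43 in silica cells and 9.10 to 9.65 in air cells. The CXCR3 ligand Cxcl10 was not well above background on any air array and was at least 1.2-fold higher in silica cells, whereas Cxcl9 changed by 0.08 ± 0.08 without a call (adjusted p 0.522, limma).

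Among the chemokine receptors 7 of 13 tested members rose and 1 fell. The atypical receptor Ccrl2 changed most and read 9.42, 9.65, 9.92, 9.27, 9.46 and 9.67 in the silica arrays, against 7.89, 7.89, 8.0029, 8.10, 8.01 and 7.90 in the air arrays (1.60 ± 0.10, adjusted p 9.84e-07). Further rises were those of Cxcr4 (0.85 ± 0.11) and Ccr7 (0.63 ± 0.06). The receptor Cxcr1 fell (-0.49 ± 0.05). Ccr2, the receptor of Ccl2 and Ccl7, stood near the floor at 7.47 in silica cells and 7.45 in air cells and was not called.

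Markers of monocytes and of recruited macrophages were mostly higher, and several markers of resident alveolar macrophages were lower. In the first list 14 of 25 tested members rose and 4 fell (13 and 2 after the median shift), with a median change of 0.21. After Spp1 and Fn1 came Cd14, the endotoxin co-receptor (1.77 ± 0.15), and Tlr2, which senses bacterial lipoproteins (1.23 ± 0.10). The integrin alpha M chain Itgam (0.75 ± 0.06) rose from near the floor, as did the C1q chains C1qa (0.42 ± 0.04, detected on 4 of 6 air arrays) and C1qb (0.50 ± 0.05, detected on 4 of 6 air arrays). The calcium-binding proteins S100a6 (-0.91 ± 0.10) and S100a4 (-0.74 ± 0.14), the transcription factor Maf (-0.67 ± 0.07) and the lipid receptor Trem2 (-0.15 ± 0.03) fell.

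Within the list of resident alveolar macrophage markers 2 of 20 tested members rose and 7 fell (1 and 3 after the median shift). The ribonuclease Rnase3, named Ear11 in the files, changed most and read 8.31, 7.96, 8.06, 8.21, 8.10 and 7.98 in the silica arrays, against 9.11, 8.99, 9.04, 8.82, 9.04 and 9.01 in the air arrays (-0.90 ± 0.07, adjusted p 3.48e-06). The receptor kinases Axl (-0.62 ± 0.06) and Mertk (-0.57 ± 0.05), which bind dying cells, the lipid-sensing nuclear receptor Pparg (-0.54 ± 0.10), on which the resident cells depend, and the mannose receptor Mrc1 (-0.47 ± 0.07) also fell. The fatty acid carrier Fabp4 went against the list and rose (0.58 ± 0.17). The difference in Lpl, which lay near the top of the scale in both groups, did not pass (adjusted p 0.143, limma).

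Among receptors for particles, dying cells and immune complexes more fell than rose. Of the scavenger and phagocytic receptors 5 of 20 tested members rose and 11 fell (2 and 3 after the median shift), with a median change of -0.22. Mfge8, a secreted bridge between dying cells and phagocytes, fell most and read 10.0015, 9.90, 10.03, 9.83, 10.15 and 9.32 in the silica arrays, against 11.06, 10.94, 10.66, 10.98, 11.30 and 11.34 in the air arrays (-1.17 ± 0.15, adjusted p 0.00013). Clec4a1 (-0.75 ± 0.11), the oxidised lipoprotein receptor Olr1 (-0.50 ± 0.10), the beta-glucan receptor Clec7a (-0.42 ± 0.05) and the scavenger receptor Msr1 (-0.25 ± 0.04) fell as well. Clec4e, which binds mycobacterial glycolipid, rose from near the floor (0.72 ± 0.03, detected on 5 of 6 air arrays), and Scarb2 rose (0.43 ± 0.08). Among Fc receptors and their partners 1 of 15 tested members rose and 6 fell (1 and 2 after the median shift). The inhibitory receptor Fcgr2b rose 2.42-fold. Its levels were 9.01, 9.17, 9.67, 9.43, 9.12 and 8.99 in the silica arrays, against 7.96, 7.97, 7.92, 8.20, 7.87 and 7.83 in the air arrays (1.27 ± 0.11, adjusted p 1.21e-05). The neonatal receptor Fcgrt (-0.95 ± 0.10), the activating receptor Fcgr3a (-0.78 ± 0.13) and the kinase Syk (-0.26 ± 0.07) fell.

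Complement genes were divided. In that list 7 of 20 tested members rose and 6 fell (6 and 2 after the median shift). Factor B, Cfb, of the alternative pathway changed most and read 12.02, 11.93, 11.63, 12.02, 11.86 and 11.78 in the silica arrays, against 12.65, 12.77, 12.76, 12.65, 12.76 and 12.65 in the air arrays (-0.83 ± 0.06, adjusted p 4.04e-06). The complement receptor Vsig4 (-0.78 ± 0.13), the decay-accelerating protein Cd55 (-0.73 ± 0.07) and factor D, Cfd (-0.52 ± 0.11), fell too, while the C1q chains and Itgam rose.

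**Figure D3:**
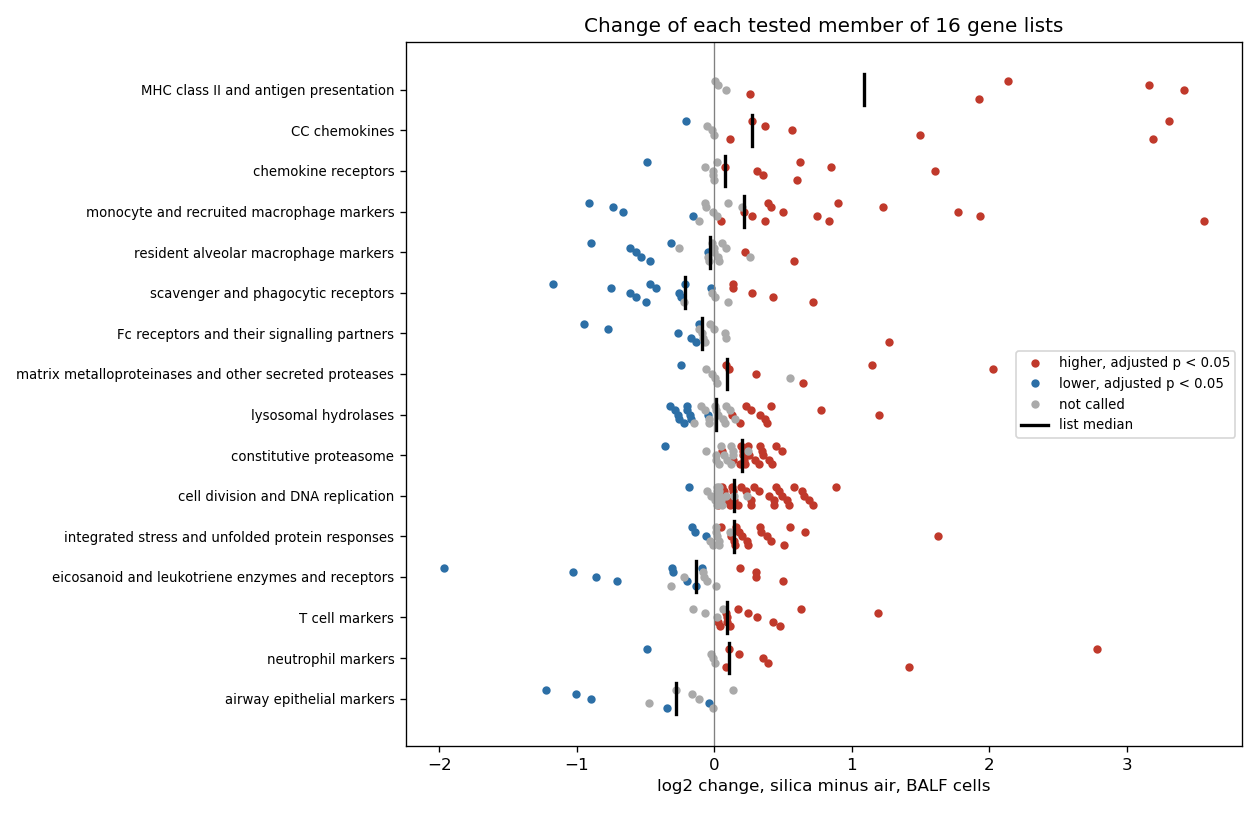
Log2 change, silica minus air, of each tested member of 16 gene lists in BALF cells, 1 point per gene, red where higher and blue where lower at an adjusted p under 0.05, grey where not called. Black bars are list medians, from 1.09 for MHC class II and antigen presentation to -0.28 for airway epithelial markers.

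Toll-like receptors and their partners were mixed, 8 higher and 5 lower of 17 (2 and 1 after the median shift). Cd14, the list's largest change, read 11.77, 11.88, 11.87, 11.93, 11.90 and 11.87 in the silica arrays, against 10.01, 9.55, 10.72, 10.21, 10.03 and 10.09 in the air arrays (3.41-fold, adjusted p 7.97e-06). Tlr7, which senses RNA in endosomes, fell (-0.90 ± 0.12), and so did Tlr13 (-0.46 ± 0.07). Tlr4 itself changed by 0.03 ± 0.03 without a call (adjusted p 0.487, limma).

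Of the interleukin-1 family and inflammasome genes 6 of 17 tested members rose and 3 fell (3 and 0 after the median shift). Behind Il1r2, the list's largest change, interleukin-1 beta, Il1b, rose 2.18-fold (1.13 ± 0.17), its receptor antagonist Il1rn rose less (0.50 ± 0.09), and the adaptor Pycard rose (0.43 ± 0.06). The sensor Nlrp3 fell slightly (-0.11 ± 0.02), and Il1a, Il18 and Casp1 were not called, with changes of -0.23 ± 0.16, -0.26 ± 0.17 and 0.07 ± 0.07. Among other cytokines and receptors 9 of 21 tested members rose and 6 fell (4 and 1 after the median shift). Lymphotoxin beta, Ltb, led them and read 8.98, 8.64, 8.86, 8.75, 8.79 and 9.21 in the silica arrays, against 7.58, 7.51, 7.59, 7.59, 7.67 and 7.60 in the air arrays (1.28 ± 0.08, adjusted p 1.42e-06). The macrophage growth factor Csf1 rose from near the floor (1.08 ± 0.11), and Il16 (-0.62 ± 0.07) and Il17ra (-0.53 ± 0.09) fell. Tnf lay at the floor in both groups.

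NF-kB inhibitors and targets were among the genes called. Of the list 8 of 18 tested members rose and 2 fell (3 and 0 after the median shift), led by the inhibitor Nfkbia. Its levels were 12.16, 12.42, 12.31, 12.35, 12.27 and 12.39 in the silica arrays, against 11.40, 11.46, 11.66, 11.33, 11.47 and 11.60 in the air arrays (0.83 ± 0.06, adjusted p 3.11e-06). Birc2, an inhibitor of apoptosis (0.65 ± 0.10), the adhesion molecule Icam1 (0.60 ± 0.06) and the inhibitor Nfkbib (0.49 ± 0.07) followed. The subunits Nfkb1 (-0.03 ± 0.02) and Rela (0.02 ± 0.02) were not called. In the interferon list 12 of 32 tested members rose and 2 fell (6 and 0 after the median shift). After Slfn3 the largest were Ifitm1, a membrane protein against viral entry (1.24 ± 0.13), and, from near the floor, Ifit1 (0.88 ± 0.08) and Irf7 (0.88 ± 0.08). Mx1 (0.19 ± 0.07) did not pass. Without air replicate 4 the change of Ifit1 was 0.90, and a second probe of it rose by 0.10. Immediate early genes gave 9 higher and 3 lower of 25 (4 and 0 after the median shift). Ier3 led them and read 8.45, 8.38, 8.85, 8.74, 8.49 and 8.38 in the silica arrays, against 7.56, 7.63, 7.69, 7.62, 7.54 and 7.59 in the air arrays (0.95 ± 0.08, adjusted p 8.89e-06), with Junb behind it (0.69 ± 0.09).

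Macrophage elastase, Mmp12, led the secreted proteases. It read 12.54, 12.99, 13.34, 12.41, 13.20 and 11.45 in the silica arrays, against 10.60, 10.92, 10.25, 11.20, 10.42 and 10.38 in the air arrays (4.07-fold, 2.03 ± 0.30, adjusted p 0.0004). The lowest silica array, replicate 6, was just above the highest air array, and without it the change was 2.27. Of this list 6 of 12 tested members rose and 1 fell (5 and 0 after the median shift), among them matrilysin, Mmp7 (1.14 ± 0.15), the membrane protease Adam15 (0.65 ± 0.07) and urokinase, Plau (0.30 ± 0.04). Of the protease inhibitors 6 of 15 tested members rose and 3 fell (3 and 0 after the median shift). Behind Slpi stood cystatin F, Cst7 (0.65 ± 0.04), the metalloproteinase inhibitor Timp1 (0.61 ± 0.07) and cystatin C, Cst3 (0.58 ± 0.05), while Timp2 (-0.45 ± 0.07) and Spint2 (-0.42 ± 0.09) fell. Secreted defence proteins were few above the floor. Of 8 tested members 3 rose and 0 fell, led by the chitinase-like Chi3l1 (1.52 ± 0.12). It read 8.74, 9.04, 9.61, 9.28, 9.09 and 8.97 in the silica arrays, against 7.57, 7.52, 7.60, 7.83, 7.58 and 7.50 in the air arrays. Without air replicate 4, the highest of its group, the change was 1.57. The antibacterial Pglyrp1 was not well above background on any air array and was at least 1.05-fold higher. Its fitted change without air replicate 4 was 0.11.

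Lysosomal hydrolases were called in both directions. Of the hydrolases 10 of 33 tested members rose and 10 fell (1 and 0 after the median shift). Cathepsin L, Ctsl, rose most and read 11.75, 11.99, 12.35, 11.68, 12.17 and 11.32 in the silica arrays, against 10.77, 10.48, 10.81, 10.93, 10.60 and 10.52 in the air arrays (2.29-fold, 1.19 ± 0.16, adjusted p 0.000191). Cathepsin K, Ctsk (0.41 ± 0.12), rose as well, although the call of Ctsk was lost without air replicate 1 (adjusted p 0.0531) or air replicate 5 (0.0556). Lysosomal acid lipase, Lipa (-0.32 ± 0.06), and Ppt1 (-0.29 ± 0.05) fell. In the list of lysosomal membrane proteins and proton pump subunits 5 of 28 tested members rose and 4 fell (0 and 0 after the median shift). The shares in the main analysis, 17.9% and 14.3%, were near the 15.2% and 18.1% of all tested probes. The largest change, that of Scarb2, was 0.43 ± 0.08. Its levels were 11.77, 11.78, 11.81, 11.79, 11.81 and 11.68 in the silica arrays, against 11.37, 11.26, 11.62, 11.0023, 11.38 and 11.43 in the air arrays.

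Autophagy genes were lower in count, 9 of 28 against 3 higher. Optineurin, Optn, an autophagy receptor, read 10.76, 10.70, 10.59, 10.68, 10.58 and 10.29 in the silica arrays, against 11.06, 11.32, 10.92, 11.66, 11.08 and 11.33 in the air arrays (-0.63 ± 0.12, adjusted p 0.00198). The mitophagy receptor Bnip3 (-0.59 ± 0.09) and Gabarapl2 (-0.45 ± 0.05) fell, and the receptor Sqstm1 rose (0.42 ± 0.08). None of these was called after the median shift.

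The genes of lipid handling that changed most were few. In the list built around Apoe, Trem2 and cholesterol efflux 5 of 21 tested members rose and 7 fell (1 and 0 after the median shift), and after Apoe no change exceeded that of the cholesteryl ester hydrolase Nceh1 (-0.54 ± 0.05). The efflux pumps Abca1 (0.11 ± 0.13) and Abcg1 (-0.12 ± 0.03) changed less, and Abca1 was not called. Of the cholesterol synthesis genes 2 of 17 tested members rose and 2 fell (0 and 0 after the median shift). In fatty acid metabolism 5 of 30 tested members rose and 10 fell (1 and 2 after the median shift). Scd, which makes monounsaturated fatty acids, led them and read 11.75, 11.89, 12.26, 11.75, 12.18 and 11.59 in the silica arrays, against 9.54, 10.13, 10.21, 10.39, 9.95 and 10.31 in the air arrays (3.51-fold, adjusted p 1.03e-05). The lipogenic transcription factor Srebf1 rose too (0.85 ± 0.12), and the lipases Mgll (-0.78 ± 0.09) and Pnpla2 (-0.67 ± 0.07) fell. The lipid droplet protein Plin2, near the top of the scale, stood at 14.82 ± 0.05 in silica cells and 14.80 ± 0.06 in air cells and was not called.

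Falls were led by a gluconeogenic enzyme. Fbp1, fructose-1,6-bisphosphatase, read 8.49, 8.67, 8.24, 8.22, 8.55 and 8.40 in the silica arrays, against 10.9961, 10.54, 10.41, 10.49, 10.93 and 10.62 in the air arrays. Every silica array was more than 1.5 below every air array on the log2 scale, and the fall was 4.7-fold (-2.23 ± 0.12, adjusted p 3.34e-07). In the list of glycolysis, gluconeogenesis and the pentose phosphate pathway 15 of 29 tested members rose and 5 fell (3 and 1 after the median shift). Phosphogluconate dehydrogenase, Pgd (0.91 ± 0.08), the lactate carriers Slc16a1 (0.76 ± 0.07) and Slc16a3 (0.59 ± 0.08) and triosephosphate isomerase, Tpi1 (0.70 ± 0.05), rose.

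Alox15, the 12/15-lipoxygenase that oxygenates arachidonic and linoleic acid, fell 3.9-fold. It read 9.05, 9.21, 8.34, 9.18, 9.44 and 9.01 in the silica arrays, against 10.98, 11.12, 10.58, 10.97, 11.26 and 11.11 in the air arrays (-1.97 ± 0.17, adjusted p 1.03e-05). Of the eicosanoid enzymes and receptors 4 of 19 tested members rose and 9 fell (2 and 4 after the median shift), with a median change of -0.13. The phospholipases Pla2g2d (-1.03 ± 0.09) and Pla2g15 (-0.86 ± 0.07), the epoxide hydrolase Ephx1 (-0.71 ± 0.07), and the leukotriene genes Alox5 (-0.31 ± 0.09) and Alox5ap (-0.30 ± 0.08) fell. Prostaglandin synthase 2, Ptgs2, rose from near the floor (0.31 ± 0.03, detected on 1 of 6 air arrays). Alox15 was also the largest change among genes of alternative macrophage activation, where 4 of 11 tested members rose and 4 fell (2 and 1 after the median shift) and arginase 1, Arg1, changed by 0.01 ± 0.03 (adjusted p 0.812, limma).

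Hephaestin, Heph, a copper ferroxidase of iron export, read 9.32, 9.06, 8.79, 8.98, 8.76 and 8.60 in the silica arrays, against 11.03, 11.05, 10.76, 10.86, 10.77 and 10.65 in the air arrays (3.82-fold lower, -1.93 ± 0.12, adjusted p 1.01e-06). The iron exporter ferroportin, Slc40a1, was not well above background on any air array and was at least 1.64-fold higher in silica cells. Across iron and haem genes 3 of 18 tested members rose and 5 fell (1 and 1 after the median shift), with haem oxygenase, Hmox1, higher (0.34 ± 0.06) and the phagosomal metal carrier Slc11a1 lower (-0.34 ± 0.06). Ferritin heavy chain, also near the top of the scale, stood at 14.99 in silica cells and 15.01 in air cells for Fth1 and was not called.

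Ly49 genes, a family of killer lectin-like receptors whose members resemble each other closely so that probes may share transcripts, were mostly lower. Ly49s4 read 7.74, 7.81, 7.53, 7.72, 7.66 and 7.67 in the silica arrays, against 9.51, 9.62, 9.13, 9.80, 9.77 and 9.49 in the air arrays (3.64-fold lower, -1.86 ± 0.10, adjusted p 4.78e-07). Ly49i3 (-1.15 ± 0.10), Ly49si2 (-0.69 ± 0.14) and Ly49si1 (-0.67 ± 0.20) fell too, the call of Ly49si1 being lost without silica replicate 1 (adjusted p 0.0554), 2 (0.0539) or 6 (0.0503). In the whole list of Ly49 and other killer lectin-like receptors 5 of 14 tested members rose and 6 fell (2 and 4 after the median shift). All 6 that fell were Ly49 genes, and the 5 that rose were Klr genes, each by at most 0.12. Of these 5, Klrc3, Klrd1 and Klrb1a were detected on no air array. The natural killer markers stood near the floor. Of the 4 that were called higher, Ctsw, Klrd1 and Klrb1a were likewise tested only through their detection in silica cells, and their calls are not read as a result about the list. Perforin, Prf1, was at 7.45 in silica cells and 7.42 in air cells.

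Further falls among the 10 largest came from genes with varied roles. Gipc2, a PDZ domain protein, read 9.21, 8.89, 8.94, 8.83, 8.56 and 8.46 in the silica arrays, against 10.76, 10.37, 10.33, 10.55, 10.68 and 10.58 in the air arrays (-1.73 ± 0.12, adjusted p 2.93e-06). Zdhhc2, which attaches palmitate to proteins, read 8.58, 8.75, 8.54, 8.41, 8.67 and 8.31 in the silica arrays, against 10.36, 10.43, 10.14, 10.30, 10.12 and 10.09 in the air arrays (-1.70 ± 0.08, adjusted p 2.28e-07). The groups were far apart for both, with silica maxima of 9.21 and 8.75. Ccdc80, a secreted matrix-associated protein named Ssg1 in the files, read 11.30, 11.13, 10.71, 11.28, 10.87 and 10.91 in the silica arrays, against 12.30, 12.50, 12.15, 12.34, 12.31 and 12.25 in the air arrays (-1.28 ± 0.10, adjusted p 6.41e-06). Tac1, the precursor of substance P, read 7.9963, 8.03, 7.65, 8.01, 7.92 and 7.74 in the silica arrays, against 9.05, 9.31, 8.95, 8.99, 9.32 and 9.20 in the air arrays (-1.25 ± 0.09, adjusted p 2.88e-06).

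Tmem176b, a membrane protein of myeloid cells, read 9.57, 9.96, 9.49, 9.51, 10.01 and 9.97 in the silica arrays, against 11.02, 11.03, 10.93, 11.33, 10.87 and 10.74 in the air arrays (-1.24 ± 0.12, adjusted p 2.59e-05). Krt19, an epithelial keratin, read 9.01, 8.73, 8.61, 9.14, 8.60 and 8.91 in the silica arrays, against 10.18, 10.32, 10.30, 9.93, 9.80 and 9.83 in the air arrays (-1.23 ± 0.13, adjusted p 2.97e-05). All silica arrays were below all air arrays for both. The remaining falls among the 20 largest were those of the calcium channel subunit Cacnb3 (-1.21 ± 0.08), the motor protein Myo6 (-1.16 ± 0.10, RGD1560646 in the files), the hydrolase Cmbl (-1.12 ± 0.12, RGD1306952 in the files), the serpin Serpinb10 (-1.12 ± 0.16), the transporter gene Abcg3l1 (-1.10 ± 0.08) and the aminoacylase Acy3 (-1.09 ± 0.09), beside Pf4, Mfge8, Ly49i3 and Cxcl1.

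Many genes of protein quality control were higher. In the list of the integrated stress and unfolded protein responses 17 of 28 tested members rose and 3 fell (1 and 0 after the median shift). Ddit3, the stress transcription factor CHOP, rose 3.09-fold and read 10.48, 10.74, 10.89, 10.60, 10.66 and 10.64 in the silica arrays, against 8.92, 9.16, 9.19, 8.87, 9.03 and 9.08 in the air arrays (1.63 ± 0.07, adjusted p 1.66e-07). The chaperones Dnajc3 (0.66 ± 0.05), Pdia6 (0.55 ± 0.04) and Hspa5 (0.51 ± 0.06) rose, whereas Atf4 (0.03 ± 0.07) and Xbp1 (-0.01 ± 0.05) were not called. A second probe of Pdia6 gave the same change, 0.55. Of the constitutive proteasome subunits 19 of 32 tested members rose and 1 fell (0 and 0 after the median shift), with a median change of 0.20, led by Psmd9. Its levels were 9.51, 9.43, 9.47, 9.50, 9.54 and 9.49 in the silica arrays, against 8.99, 8.92, 9.16, 8.93, 8.98 and 9.01 in the air arrays (0.49 ± 0.04, adjusted p 4.49e-06). Psmd3 (0.45 ± 0.06), Psmc1 (0.42 ± 0.04) and Psmd11 (0.39 ± 0.03) followed. Both counts depended on the scaling. The list medians after the median shift were 0.12 for the stress list and 0.10 for the proteasome.

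Cell division genes were higher in 29 of 46 tested members and lower in 1, Aurka. Rrm2, which makes DNA precursors, read 10.52, 10.27, 10.66, 10.17, 10.86 and 10.32 in the silica arrays, against 9.52, 9.83, 9.61, 9.72, 9.25 and 9.55 in the air arrays (0.89 ± 0.13, adjusted p 0.00031). The ubiquitin-conjugating enzyme Ube2c (0.72 ± 0.06), cyclin B2, Ccnb2 (0.69 ± 0.05), and Cks2 (0.65 ± 0.12) rose, and so did Cdk1 (0.58 ± 0.08) and the sliding clamp Pcna (0.40 ± 0.09). Mki67 stood at the floor in both groups. With the median shift 2 rose and 0 fell, and the list median was 0.13, against 0.14 in the main analysis. Among p53 targets and growth arrest genes 7 of 19 tested members rose and 2 fell (3 and 0 after the median shift). Gdf15, a secreted stress hormone, led them and read 8.75, 9.17, 9.36, 8.97, 9.38 and 8.97 in the silica arrays, against 7.71, 7.69, 7.63, 7.58, 7.67 and 7.78 in the air arrays (1.42 ± 0.10, adjusted p 2.66e-06). The cyclin Ccng1 rose (0.58 ± 0.12), and Cdkn1a, at 7.45 in silica cells and 7.40 in air cells, rose by 0.05. Of the cell death and survival genes 9 of 29 tested members rose and 5 fell (1 and 0 after the median shift), with the adaptor Fadd (0.69 ± 0.06), Bak1 (0.50 ± 0.05) and Mcl1 (0.42 ± 0.08) higher beside Birc2. Fadd read 9.52, 9.49, 9.55, 9.40, 9.71 and 9.58 in the silica arrays, against 8.89, 8.78, 8.99, 8.87, 8.68 and 8.93 in the air arrays.

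Oxidant defence genes went both ways, 11 higher and 5 lower of 29 (1 and 3 after the median shift). Gstp1, a glutathione transferase, rose most and read 9.33, 9.46, 9.53, 9.32, 9.53 and 9.68 in the silica arrays, against 8.37, 8.22, 8.53, 8.16, 8.32 and 8.17 in the air arrays (1.18 ± 0.08, adjusted p 1.65e-06). A second probe, with levels below 8, rose by 0.23. The glutathione synthesis enzyme Gclc (0.58 ± 0.07) rose, and Gstm1 (-0.70 ± 0.06) and catalase, Cat (-0.62 ± 0.08), fell. In the list of the phagocyte oxidase and nitric oxide synthase 3 of 13 tested members rose and 2 fell (0 and 1 after the median shift). The oxidase core Cybb was lower and read 12.33, 12.25, 11.89, 12.28, 12.31 and 12.47 in the silica arrays, against 12.83, 12.84, 12.78, 12.94, 12.85 and 12.84 in the air arrays (-0.59 ± 0.08, adjusted p 0.000193), while its cytosolic partner Ncf1 was higher (0.29 ± 0.07). In xenobiotic metabolism 4 of 24 tested members rose and 7 fell (2 and 3 after the median shift); the aldo-keto reductase Akr1b8 read 8.48, 8.93, 9.24, 8.97, 8.68 and 8.94 in the silica arrays, against 7.71, 7.74, 7.88, 7.66, 7.71 and 7.78 in the air arrays (1.13 ± 0.11) and the retinal dehydrogenase Aldh1a1 fell (-0.73 ± 0.17).

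Changes in the mitochondrial and ribosomal lists were small. Of the oxidative phosphorylation subunits 21 of 58 tested members rose and 8 fell (0 and 0 after the median shift), with a median change of 0.06, the largest change being the fall of Ndufa1. It read 11.80, 11.94, 11.83, 11.83, 11.75 and 11.79 in the silica arrays, against 12.31, 12.36, 12.33, 12.26, 12.30 and 12.29 in the air arrays (-0.49 ± 0.03). In the mitochondrial ribosome 11 of 57 tested members rose and 3 fell (0 and 0 after the median shift), in the citric acid cycle 5 rose and 3 fell of 23, and among cytosolic ribosomal proteins 12 of 72 tested members rose and 17 fell (0 and 0 after the median shift). No change in these lists was larger in size than that of Ndufa1. After the median shift none of the 58, 57, 23 and 72 members of these lists was called.

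Amino acid transporters gave 8 higher and 4 lower of 24 (4 and 0 after the median shift). Slc1a3 led them and read 10.32, 10.07, 9.95, 10.19, 10.19 and 10.86 in the silica arrays, against 8.42, 8.50, 8.49, 8.40, 8.26 and 8.60 in the air arrays (3.53-fold, adjusted p 3.25e-06). Slc7a6, which exchanges arginine and leucine, rose by 1.17 ± 0.12. Among growth factors and receptors 8 of 23 tested members rose and 4 fell (7 and 2 after the median shift), with the coreceptor Nrp1 (0.61 ± 0.06) and the platelet-derived growth factor chain Pdgfa (0.50 ± 0.04, detected on 5 of 6 air arrays) behind Gdf15. Transforming growth factor beta 1, Tgfb1, changed by -0.23 ± 0.11 without a call (adjusted p 0.12, limma). Of the integrins and adhesion molecules 9 of 25 tested members rose and 5 fell (5 and 2 after the median shift); Ceacam4 led and read 10.11, 9.94, 10.61, 10.06, 10.09 and 9.96 in the silica arrays, against 7.81, 7.90, 8.29, 7.98, 7.77 and 7.98 in the air arrays, and the junctional protein F11r (-0.65 ± 0.09) and Cd47, the signal against engulfment (-0.60 ± 0.09), fell. In the coagulation list 3 of 12 tested members rose and 0 fell (1 and 0 after the median shift), led by transglutaminase 2, Tgm2 (0.68 ± 0.11), which read 8.48, 8.75, 9.03, 8.57, 8.82 and 8.20 in the silica arrays, against 7.89, 8.01, 8.02, 7.99, 7.90 and 7.98 in the air arrays. Macrophage transcription factors beside Hopx gave 5 higher and 8 lower of 33 with Hopx counted (2 and 1 after the median shift), including Batf (0.62 ± 0.05) and Cebpa (-0.35 ± 0.07). Clock genes gave 1 higher and 4 lower of 12 (0 and 1 after the median shift). The largest of these, Per2 (0.35 ± 0.12), read 9.75, 9.50, 9.42, 9.27, 8.97 and 9.22 in the silica arrays, against 9.09, 9.15, 8.89, 9.15, 8.86 and 8.86 in the air arrays, and its adjusted p exceeded 0.05 in 7 of the 12 analyses that left out an array.

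Markers of some other cell types moved with the groups, and their part in the results above was not tested. Among T cell markers 13 of 17 tested members rose and 0 fell, all but Lat from levels below 8 in air cells. Il2ra, Sh2d1a and Zap70, 3 of these 13, were detected on no air array. Cd3g, a chain of the T cell receptor complex, read 8.79, 8.69, 8.40, 8.57, 8.52 and 9.46 in the silica arrays, against 7.64, 7.58, 7.57, 7.54, 7.46 and 7.51 in the air arrays (2.28-fold, 1.19 ± 0.15, adjusted p 0.000127). Cd3d (0.48 ± 0.07) and Lat (0.63 ± 0.14) rose, and Cd4 and Cd8a were not called. The mean level over the 17 tested T cell markers was 7.66 to 7.92 in silica cells and 7.50 to 7.58 in air cells, highest in silica replicate 6. Without that array Cd3g changed by 1.04 and the count of T cell markers that rose was 13. In the natural killer list Ctsw and Klrd1 were not well above background on any air array and were at least 1.09-fold and at least 1.04-fold higher. The call of Ctsw was lost in 9 of the 12 analyses that left out an array, and its change of 0.13 was 0.08 without silica replicate 6. That of Klrd1 was 0.05 without it.

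In the neutrophil list 7 of 11 tested members rose and 1 fell, and 12 of 23 members on the array, S100a9, Lcn2 and Csf3r among them, were too dim to be tested. The list holds Il1r2, which rose (2.78 ± 0.11), and the 1 member that fell was the chemokine receptor Cxcr1. S100a8, a calcium-binding protein abundant in neutrophils, read 8.86, 8.92, 9.32, 9.46, 8.78 and 8.28 in the silica arrays, against 7.46, 7.40, 7.44, 7.96, 7.44 and 7.44 in the air arrays (1.41 ± 0.18, adjusted p 0.000155), the high air value being that of replicate 4, without which the change was 1.5003. The mean over the tested markers was 8.61 to 8.81 in silica cells and 8.24 to 8.38 in air cells. Myeloperoxidase, Mpo, stood at the floor in both groups. B cell and mast cell markers were almost all dim: 12 of 17 B cell genes and 21 of 25 eosinophil, basophil and mast cell genes on the array were not tested. Of those tested, 1 B cell gene rose, Cd37 (0.23 ± 0.06), and in the other list 1 rose and 2 fell with Il3ra changing most (0.17 ± 0.04). For dendritic cell markers 3 of 8 tested members rose and 2 fell, with Cd1d1, which presents lipids, lower. It read 9.88, 9.96, 9.44, 9.81, 9.68 and 9.50 in the silica arrays, against 10.65, 10.55, 10.46, 10.48, 10.52 and 10.35 in the air arrays (-0.79 ± 0.09).

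Airway epithelial markers fell or did not pass: 0 of 11 tested members rose and 5 fell (0 and 3 after the median shift), with a median change of -0.28. The club cell proteins Scgb3a1 (-1.0047 ± 0.27) and Scgb1a1 (-0.89 ± 0.19) fell with Krt19. Agr2 fell as well (-0.35 ± 0.12), a call lost in 9 of the 12 analyses that left out an array. Bpifa1 varied from 14.11 to 14.87 in silica cells and 14.58 to 14.92 in air cells and was not called. The mean over the tested airway markers was 8.98 to 9.27 in silica cells and 9.27 to 9.74 in air cells. Of the endothelial, smooth muscle and fibroblast markers 0 of 5 tested members rose and 2 fell (0 and 1 after the median shift). Esam, an endothelial adhesion molecule, changed most and read 7.73, 7.57, 7.71, 7.68, 7.61 and 7.80 in the silica arrays, against 8.33, 8.82, 8.21, 8.26, 8.25 and 8.35 in the air arrays (-0.69 ± 0.09, adjusted p 0.000203). Red cell RNA varied from rat to rat in both groups. Haemoglobin beta, Hbb, read 11.40, 8.92, 12.80, 11.54, 12.42 and 11.15 in the silica arrays, against 13.21, 13.47, 10.63, 12.68, 11.33 and 14.33 in the air arrays, and the overlapping groups gave -1.24 ± 0.75 (adjusted p 0.237, limma).

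Silica replicate 6 combined the highest class II, T cell and Ccl5 signals of its group with the lowest Spp1, Apoe, Ccl7, Ccl2 and Mmp12. The lung of the same rat was read on a separate array. Spp1 was 9.73 in the lung of silica rat 6, 10.73 to 12.53 in the other 5 silica lungs and 7.50 to 7.80 in air lungs. RT1-Db1 was 13.12 in the lung of silica rat 6, 12.48 to 12.77 in the other 5 silica lungs and 12.02 to 12.17 in air lungs. Cd3g was 11.58 in the lung of silica rat 6, 9.52 to 10.80 in the other 5 silica lungs and 9.22 to 9.77 in air lungs. Of the silica lungs this one was also the highest for RT1-Da, RT1-Ba, Cd74 and Ubd. It was not the lowest for Apoe (13.52), Mmp12 (10.44), Ccl2 (9.77) or Ccl7 (8.52), nor the highest for Ccl5 (13.43). Leaving out the BALF array of this rat gave 1433 probes higher and 1625 lower in BALF cells.

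The change in BALF cells was set against that in lung tissue of the same rats, over 9131 probes tested in both tissues and on each rat's BALF minus lung difference. The effect is taken with its sign, so that a larger fall in BALF cells counts as lower. The silica effect was higher in BALF cells for 937 probes (10.3%) and lower for 1116 (12.2%). The 40 leading genes were chosen by the size of their change in BALF cells, so that a larger effect there is partly built in. Of them 39 were tested in both. For 18, all of them rises, the signed effect was higher in BALF cells, and for 19, all of them falls, it was lower. Each of these changes was larger in size in BALF cells than in lung. For 2 genes the difference was not called. Those 2 were Spp1, at 3.56 ± 0.45 in BALF cells and 3.62 ± 0.36 in lung (difference -0.06 ± 0.25, adjusted p 0.908, limma), and Mmp12, at 2.03 ± 0.30 in BALF cells and 2.68 ± 0.23 in lung (difference -0.65 ± 0.30, adjusted p 0.157).

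Apoe had the largest difference. Its silica effect was 4.77 ± 0.29 in BALF cells and 0.42 ± 0.16 in lung (difference 4.35 ± 0.41, adjusted p 3.35e-05). The lung started from a high level. Apoe read 12.87 to 13.84 in silica lungs and 12.62 to 13.10 in air lungs, beside 7.43 to 8.20 in air BALF cells. Hopx changed by 3.31 ± 0.11 in BALF cells and -0.11 ± 0.04 in lung (difference 3.42 ± 0.11, adjusted p 3.53e-08). RT1-Da changed by 3.16 ± 0.21 in BALF cells and 0.35 ± 0.06 in lung (difference 2.81 ± 0.17, adjusted p 2.2e-06), and RT1-Db1 by 3.42 ± 0.31 in BALF cells and 0.65 ± 0.09 in lung (difference 2.76 ± 0.24, adjusted p 1.78e-05). Hopx and RT1-Da lay near the top of the scale in lung, where a rise may register only in part, so that the size of their differences is not firm. Hopx read 14.73 to 14.79 in silica lungs and 14.69 to 14.96 in air lungs. RT1-Da read 14.71 to 15.06 in silica lungs and 14.44 to 14.65 in air lungs, beside 15.14 for the highest level on any BALF array.

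In the other direction, complement factor I, Cfi, changed by -0.05 ± 0.01 in BALF cells and 2.10 ± 0.20 in lung (difference -2.15 ± 0.19, adjusted p 2.6e-05). Fbp1 changed by -2.23 ± 0.12 in BALF cells and -0.21 ± 0.03 in lung (difference -2.02 ± 0.11, adjusted p 1.07e-06) and Ly49s4 by -1.86 ± 0.10 in BALF cells and -0.11 ± 0.02 in lung (difference -1.76 ± 0.09, adjusted p 5.38e-07). Ubd, a ubiquitin-like modifier induced by cytokines, changed by 0.99 ± 0.27 in BALF cells and 2.65 ± 0.52 in lung (difference -1.65 ± 0.37, adjusted p 0.00769). The call for Ubd was lost after the median shift (adjusted p 0.123) and without background correction, where the difference was -0.27 (adjusted p 0.552). After the median shift 88 probes were higher in BALF cells and 46 lower.

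**Figure D4:**
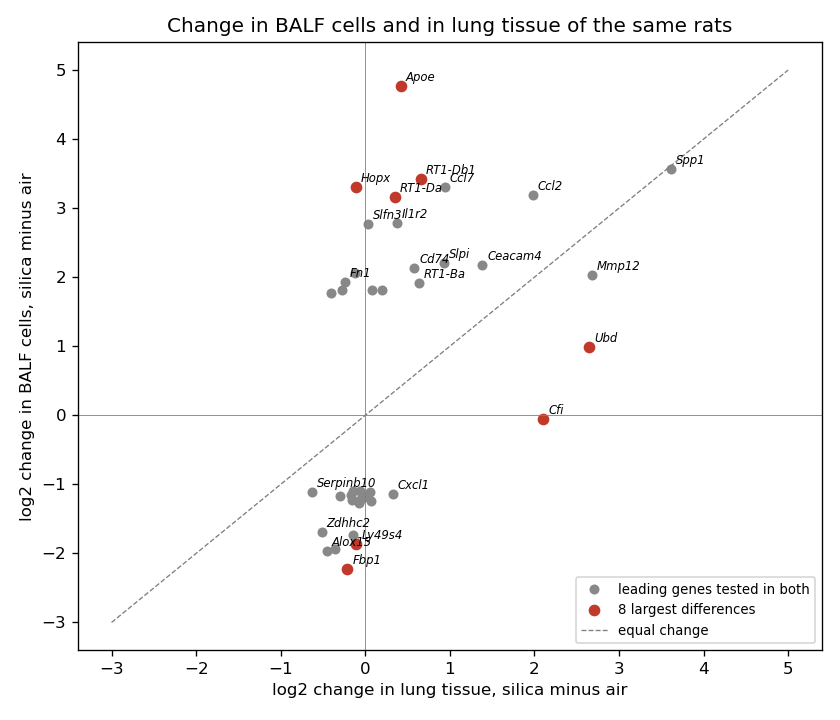
Log2 change, silica minus air, in BALF cells (vertical) against lung tissue of the same rats (horizontal). Grey points are leading genes of BALF cells tested in both, red points the 8 largest differences between the tissues, and the dashed line marks equal change. Spp1 lies on the line, and Apoe, Hopx and RT1-Da lie far above it.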

How the data were processed

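Total RNA of lavage cells from 12 rats was read on rat BeadChips. The deposited AVG_Signal values are mean bead intensity per probe, not normalized per the file headers, and each has a deposited detection p-value. BeadStudio, lumi and limma are named, with no versions, in the submitters' processing notes. The authors also deposited log2 processed values, which served as an alternative.

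From the intensities, limma 3.58.1 in R 4.3.3 gave normexp background correction from the detection p-values (neqc, offset 16), quantile normalization over the 12 arrays and log2 values. Lung arrays were treated the same way. A probe was kept when its detection p was below 0.05 on 6 or more of the 12 arrays, and the kept probes were tested, silica minus air, with lmFit and eBayes and no covariates, and p-values were adjusted by Benjamini-Hochberg over all tested probes. The effect in BALF cells was set against that in lung by fitting each rat's BALF minus lung difference. For a gene with several probes the brightest tested probe stands. A probe not detected on any air array has a bound, the silica mean over the higher, per array, of the lowest level among detected probes and the probe's own.

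The genes named are the 20 largest rises and 20 largest falls among called probes whose groups do not overlap, up to 4 called members per list by size, and the 4 largest BALF against lung differences in each direction. Members named without a call, or beyond those numbers, were chosen after their values were seen. The members and lists were chosen with earlier results of these data known. Names were updated through RefSeq: of the probes, 9918 had a current symbol, 4817 matched a synonym, 6940 kept the name in the files and 117 had none. Alternatives were other background corrections, scalings, filters and fits, the authors' values, a replicate block and leaving out each array. On simulated data for this comparison, with 200 of 9564 probes changed, the test recovered 74% of changes of 0.25, 94% of 0.5 and 100% of 1 or 2 on the log2 scale. False calls numbered 10 (5.15% of its calls). The simulation drew noise independently for each probe and changed far fewer probes than the 33.3% called in the real data. It therefore cannot show how the scaling affects the real counts. Replicate numbers did not pair the arrays: same-numbered arrays correlated in their deviations from the group means at between -0.195 and 0.388. The results of some genes are not reported here, although the counts include them.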

Additional observations from a re-analysis of the deposited data

Results flagged for a closer look

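In each group of 6 arrays, the highest or lowest array was compared with the nearest of the others for the 216 named genes, 432 gene and group pairs in all. In 37 of them 1 array lay apart by Dixon's criterion, which chance alone meets in about 1 of 20 groups. Of these, 14 fell on silica replicate 6 and 10 on air replicate 4.

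Silica replicate 6 was the high array for genes of antigen presentation, at 13.2 for RT1-Db1, 14.3 for RT1-Da, 10.9 for Cd74 and 10.9 for RT1-Ba. It was also the high array at 10.8 for Ccl5, 9.46 for Cd3g, 9.77 for Ubd, 10.0037 for Nfkbib, 7.73 for Ctsw, 7.53 for Klrd1 and 7.73 for Ramp2. The same array was low at 9.64 for Ccl7, 11.7 for Scarb2 and 7.4 for Igfbp6.

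Air replicate 4 was the high array at, among others, 7.76 for Il1r2, 8.42 for Slfn3, 7.93 for Slpi, 7.83 for Chi3l1, 7.96 for S100a8, 7.57 for Ifit1, 8.62 for Mdm2, 7.38 for Pglyrp1 and 13.9 for F11r.

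The other 13 were spread over 7 arrays. Silica replicate 3 was high at 10.6 for Ceacam4, 14.2 for Ctsk and 12.3 for Pf4, and low at 7.42 for Ly49i3. Silica replicate 1 was low at 12.8 for Psmc1. Silica replicate 2 was high at 9.0042 for Mrpl47 and low at 7.54 for Agr2. Air replicate 1 was high at 9.5008 for Pdk1 and low at 11.8 for Mdh2. Air replicate 2 was high at 8.82 for Esam. Air replicate 5 was low at 9.75 for Nceh1 and high at 10.1 for Axl. Air replicate 6 was high at 8.2029 for Apoe.

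The silica effect differed between BALF cells and lung by the test on each rat's difference. As BALF minus lung, on the log2 scale, it was 4.35 for Apoe, 3.42 for Hopx, 2.81 for RT1-Da and 2.76 for RT1-Db1. It was -2.15 for Cfi, -2.02 for Fbp1, -1.76 for Ly49s4 and -1.65 for Ubd.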

How the results depend on the processing

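The scaling moved the counts of called probes more than the other settings did, and background correction and the authors' values moved counts at 1.5-fold. With each array shifted to a common median in place of quantile normalization, 275 probes were higher and 207 lower, 97 higher by at least 1.5-fold, 110 list members higher and 45 lower, and the effect in BALF cells was higher than in lung for 88 probes and lower for 46. When the shift used only probes that every array detected, 513 probes were higher and 721 lower, and 175 list members higher and 129 lower. Without background correction 260 probes were higher by at least 1.5-fold, and with the authors' processed values 78 were lower by at least 1.5-fold. The cause was not tested. Under the other settings, leaving-out aside, 1218 to 1573 probes were higher and 1590 to 1896 lower. Leaving out each array in turn gave 1295 to 1478 higher and 1483 to 1719 lower. No named gene changed sign under the settings run for single genes, which were no background correction, both shifts, the authors' values, the block and leaving out each array. Of the 58 list medians, 13 changed sign after the median shift, all of them within 0.0554 of 0. With the replicate number as a block 1421 probes were higher and 1614 lower, 335 list members higher and 182 lower, and 4 named genes (Ctsw, Ppbp, Dusp6 and Agr2) were no longer called. Same-numbered arrays correlated at 0.388, 0.200, -0.195, 0.0915, -0.0602 and 0.172 for replicates 1 to 6, and 2 of the 6 correlated best with their own number. Signal over background limits the dim genes: 10478 probes were detected on no array, and changes from levels near their median of 7.35 are understated.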
